A study of Mus musculus with 6 samples.

Results

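Enzymes and subunits that write, erase and read out chromatin states were examined in mouse Th9 cells, T helper cells whose hallmark cytokine is interleukin 9, with and without sorafenib. The set held 40 genes, chosen by symbol as enzymes of DNA methylation, histone methylation, histone acetylation and nucleosome remodelling, and all 40 were found among the 21233 genes of the count table. Every one of the 40 passed the filter on low counts, which left 13255 genes for testing. The 6 libraries comprised 3 from cells given sorafenib, a drug that inhibits RAF and several receptor tyrosine kinases, and 3 from Th9 cells without it. The labels state no dose, duration, strain or age of the mice, and do not say whether the replicates were separate cultures or animals. P-values therefore measure the spread between these libraries, which may be technical.

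DNA methyltransferases add methyl groups to cytosine, and TET enzymes oxidise them as a first step of removal. Polycomb repressive complex 2 (PRC2), built from EZH1 or EZH2 with EED and SUZ12, methylates histone H3 at silenced genes, and polycomb repressive complex 1, which holds BMI1 in some forms, ubiquitinates histone H2A. Acetyltransferases and deacetylases set the acetylation of histones, while SWI/SNF and NuRD complexes move or evict nucleosomes. In T helper cells these systems are known to keep cytokine and lineage factor genes of other lineages silent and to hold those of the chosen lineage open.

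Among the polycomb members, Ezh2, Suz12 and Bmi1 fell with sorafenib and Eed had its higher values there. Promoter windows of these 4 genes are shown for that reason, from RefSeq on GRCm38.p6, a build that differs from the GRCm39 named for the counts. Each window of 300 bases runs from 250 before to 50 after the annotated start, read 5′ to 3′ on the gene's strand, and capitals mark a match on either strand to TTTCCCGC or TTTGGCGC, 2 E2F-type motifs that do not overlap here.
Ezh2, chr6:47594981-47595280, minus strand: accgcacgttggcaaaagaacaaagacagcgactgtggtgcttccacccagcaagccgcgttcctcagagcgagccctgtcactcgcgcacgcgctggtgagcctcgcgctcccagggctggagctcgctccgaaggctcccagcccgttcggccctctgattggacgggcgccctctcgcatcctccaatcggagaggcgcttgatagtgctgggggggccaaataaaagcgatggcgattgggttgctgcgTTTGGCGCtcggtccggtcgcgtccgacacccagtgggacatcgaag
Suz12, chr11:79992856-79993155, plus strand: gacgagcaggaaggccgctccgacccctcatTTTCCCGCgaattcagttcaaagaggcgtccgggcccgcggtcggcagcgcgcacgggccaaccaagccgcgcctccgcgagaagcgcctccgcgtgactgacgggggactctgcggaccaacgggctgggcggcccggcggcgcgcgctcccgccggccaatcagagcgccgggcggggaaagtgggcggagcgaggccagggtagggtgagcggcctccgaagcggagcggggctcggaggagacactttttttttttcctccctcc
Bmi1, chr2:18676768-18677067, plus strand: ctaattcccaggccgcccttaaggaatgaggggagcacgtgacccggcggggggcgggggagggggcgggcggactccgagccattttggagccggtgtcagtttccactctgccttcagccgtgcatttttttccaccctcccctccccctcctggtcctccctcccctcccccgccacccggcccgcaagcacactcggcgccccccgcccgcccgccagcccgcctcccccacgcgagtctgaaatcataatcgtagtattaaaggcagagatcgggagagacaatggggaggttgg
Eed, chr7:89980927-89981226, minus strand: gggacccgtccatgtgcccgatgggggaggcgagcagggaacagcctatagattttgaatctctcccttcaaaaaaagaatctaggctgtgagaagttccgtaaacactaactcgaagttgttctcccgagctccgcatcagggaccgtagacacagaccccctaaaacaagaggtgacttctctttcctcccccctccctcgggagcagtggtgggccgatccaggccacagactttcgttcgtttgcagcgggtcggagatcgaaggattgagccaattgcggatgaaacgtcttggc
The Ezh2 and Suz12 windows each held 1 such match, and those of Bmi1 and Eed held none. A window was matched for 37 of the 40 members. Over both strands, TTTCCCGC occurred in 2.7% of these (1 window) and in 1.11% of the 27025 windows of all genes, and TTTGGCGC in 2.7% (1 window) and 0.537%. Of 4 further motifs searched, TGACGTCA was in 1 member's window (Suv39h2) and 1.88% of all windows, and TGANTCA in 1 (Kat2b) and 7.93%. CCGGAAGT and an NRF1-type motif were in 0 of the members' windows, and in 4% and 0.977% of all. Windows of the members had a median of 23 CpG dinucleotides, against 7 over all genes. The windows of all genes include genes that did not pass the filter on low counts, and no comparison with tested genes alone was made. Ezh2 had 31, Suz12 had 41, Bmi1 had 23 and Eed had 17. A match to a motif describes the letters and shows neither binding nor its absence.

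Libraries held 36981476 to 38126521 counts. Values are given as CPM, counts scaled to a common library size with TMM factors, with mean ± SD over 3 libraries, and log2 fold changes are sorafenib minus control with their standard error (SE). Tests are edgeR's quasi-likelihood F test with Benjamini-Hochberg adjustment over all tested genes, called at an adjusted p under 0.05. The T cell identity was checked first. Cd4 averaged 495 ± 10.7 CPM in sorafenib and 475 ± 35.9 CPM in control cells, and Il9 was at 266 ± 15.4 CPM in sorafenib and 192 ± 18.8 CPM in control cells. Summed over the 14 T cell and Th9 markers in the table, levels were 3813 to 3932 CPM in sorafenib and 4277 to 4424 CPM in control libraries. Of these 14, 3 were called higher and 5 lower, against 8.51% and 9.43% of all tested genes. Among the falls were Cd3e (1.24-fold, adjusted p = 0.0129), Cd3g (1.31-fold, adjusted p = 0.00437) and Cd2 (1.5-fold, adjusted p = 0.000359). Markers of other cells were scarce and differed between groups as well. The 10 B cell markers in the table summed to 39.8 to 42.1 CPM in sorafenib and 27.8 to 35.96 CPM in control libraries. Among 9 tested, 7 were higher and 1 lower, against 8.51% and 9.43% of all tested genes. Their median log2 fold change was 1.73 (range -1.78 to 2.72). The B cell gene Ms4a1 had at most 2 counts in any library. The 8 CD8 and cytotoxic markers summed to 15.4 to 20.2 CPM in sorafenib and 41.6 to 51.3 CPM in control libraries, and the cytotoxic genes Gzma, Gzmb and Prf1 were the 3 that fell. Of the CD8 chains, Cd8b1 rose (9.39 ± 1.2 CPM in sorafenib and 6.37 ± 0.38 CPM in control cells, adjusted p = 0.014) and Cd8a averaged under 1 CPM in both groups. The 11 myeloid and dendritic markers in the table summed to 12.98 to 14.002 CPM in sorafenib and 7.99 to 11.7 CPM in control libraries, with Csf1r at 2 counts or fewer in each. The 10 stromal, endothelial and epithelial markers in the table summed to 29.7 to 31.5 CPM in sorafenib and 56.9 to 60.5 CPM in control libraries. The 4 mast cell and basophil markers in the table summed to 18.2 to 19.4 CPM in sorafenib and 16.7 to 18.1 CPM in control libraries. The part of such cells in the results below was not tested, and in bulk RNA fewer cells of a type cannot be told apart from less transcript per cell.

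One library stood apart, and its difference went with gene length. Control replicate 2 was set against the mean of control replicates 1 and 3. Gene length was taken from the ratio of the deposited counts to the deposited FPKM, a level scaled to gene length and library size. For the 15 members longer than 7500 bases, control replicate 2 reached 45.7% to 86.3% of the other controls, with a median of 69.2%. For the 7 members shorter than 3000 bases it reached 95.2% to 132%, with a median of 107%. It was the lowest of all 6 libraries for 20 members and the highest for 7. Over the 40 members the log2 deviation of this library went with log2 length (Pearson r = -0.79, Spearman rho = -0.87, across genes that share the same libraries), and over all 13255 tested genes less closely (r = -0.34, rho = -0.47). The members have a median length of 5958 bases against 3563 for all tested genes. Control replicate 2 was below the mean of the other controls for 28 of the 40 members, and for 6428 of the 13255 tested genes. Members are therefore also given without control replicate 2 where that changes a call or a value, and with the trend on length removed. For genes over 7500 bases, median log2 deviations from the mean of the 6 libraries were 0.111, -0.159 and 0.051 in control replicates 1, 2 and 3. They were 0.005, -0.004 and 0.013 in sorafenib replicates 1, 2 and 3. In the fit without control replicate 2, the controls kept thus lay above the sorafenib libraries for long genes.

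**Figure D1:**
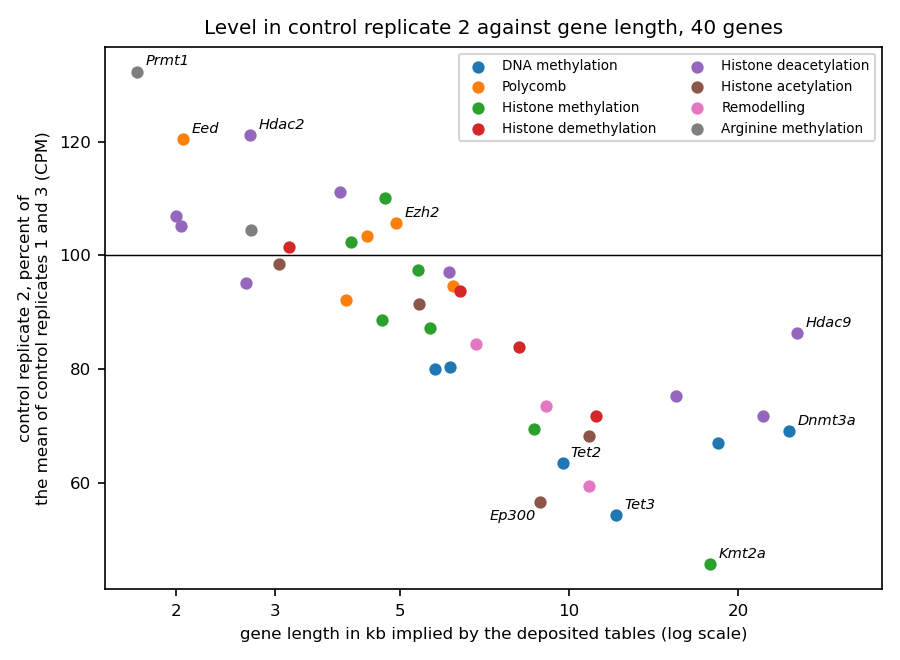
Level in control replicate 2 as a percentage of the mean of control replicates 1 and 3 (y axis, from CPM) against gene length in kilobases on a log scale (x axis), with 1 point for each of 40 genes coloured by class. Kmt2a sits lowest at 45.7% and Prmt1 highest at 132%, and the 15 genes over 7500 bases all lie below the line at 100%.

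The question was whether sorafenib changed transcripts of the chromatin machinery in Th9 cells. Of the 40 regulators 6 passed the test, which is 15% of them against 17.9% of all tested genes. Tet1 and Hdac9 rose, and Ezh2, Suz12, Bmi1 and Hdac5 fell. The 2 rises are 5% of the members against 8.51% of all genes called higher, and the 4 falls are 10% against 9.43% called lower. The share of the set that was called is therefore near the background, and changes were mostly small, with 31 of 40 members less than 1.2-fold apart. The groups did not overlap for 16 members (40%), 8 with sorafenib higher and 8 with sorafenib lower, against 36.3% of all tested genes. The median log2 fold change of the members was 0.06, against -0.01 over all tested genes. Calls among the members numbered 6 without control replicate 1 and 4 without control replicate 3, and 3, 4 and 2 without sorafenib replicate 1, 2 and 3 in turn. The share of all genes called in those fits is not given here. Whether calls were lost more among the members than elsewhere therefore cannot be read from these counts.

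Without control replicate 2, 16 of the 40 members passed (40%, against 31.8% of all tested genes). Of these, 5 were higher (12.5%, against 15% of all genes) and 11 lower (27.5%, against 16.8%). The 6 genes above were among them in the same direction, with log2 fold changes of 0.66 for Tet1, 1.12 for Hdac9, -0.25 for Ezh2, -0.32 for Suz12, -0.54 for Bmi1 and -0.38 for Hdac5. The other 10 were Eed, Suv39h2 and Prmt1, which were higher, and Tet2, Ezh1, Dot1l, Kdm5b, Hdac3, Sirt2 and Ep300, which were lower. The members' median was then -0.03, against 0.01 over all tested genes. With the trend on gene length removed from each library, an alternative chosen after seeing the data, 14 members passed (35%, against 24% of all genes), 4 higher (10.6% of all genes) and 10 lower (13.4% of all genes). The 4 were Dnmt1, Tet1, Eed and Hdac9, and the 10 were Tet2, Ezh1, Ezh2, Suz12, Bmi1, Kdm5b, Hdac1, Hdac3, Hdac5 and Sirt2.

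**Figure D2:**
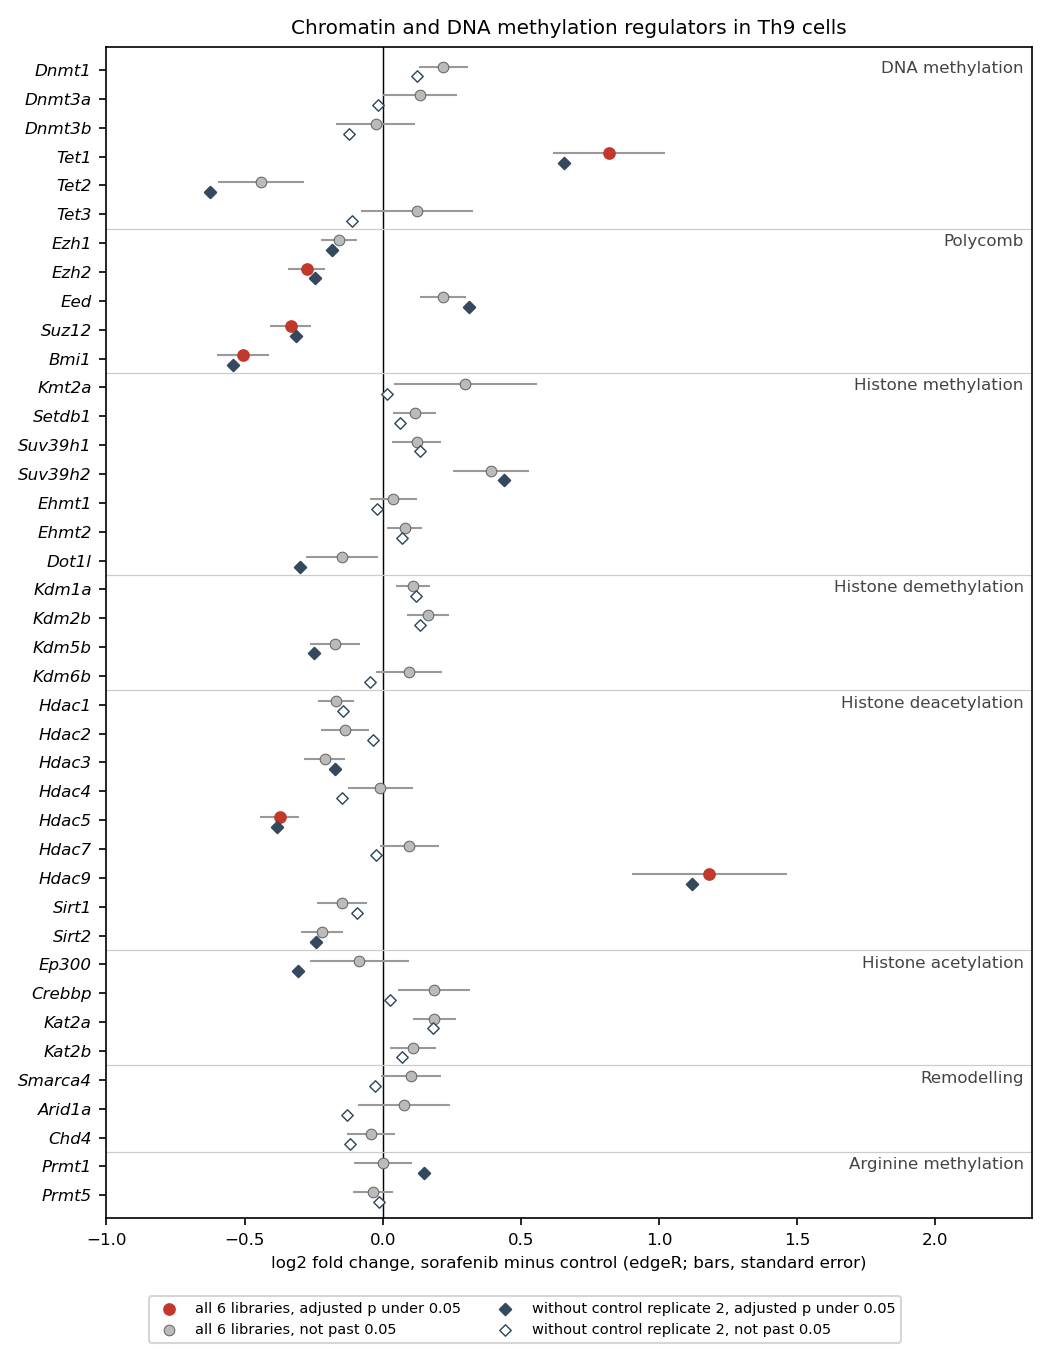
Log2 fold change, sorafenib minus control, of the 40 regulators grouped by class (x axis), with circles from all 6 libraries and their standard error and diamonds from the fit without control replicate 2. Filled red circles are the 6 genes at an adjusted p under 0.05, and filled diamonds the 16 genes past it without control replicate 2.

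Polycomb subunits held 3 of the 4 falls. Of the 5 polycomb members 3 fell, against 9.43% of all tested genes. All 5 had groups that did not overlap, against 36.3% of all tested genes, and an unadjusted p under 0.05, against 30.9%. These 5 genes were listed with earlier results known, so the counts describe them and test nothing. Ezh2, the main methyltransferase of PRC2 in dividing cells, had 88.2, 92.7 and 93.3 CPM in sorafenib libraries, against 106, 115 and 111 CPM in control libraries. Each sorafenib value lay below each control value. Ezh2 averaged 91.4 ± 2.78 CPM in sorafenib and 111 ± 4.59 CPM in control cells and fell 1.21-fold (log2 fold change -0.27 ± 0.07 SE, adjusted p = 0.0169). This call was lost with total counts only, on every FPKM fit and without control replicate 3 or any 1 sorafenib replicate (adjusted p from 0.00275 to 0.0975 over the alternatives). Suz12, the scaffold subunit, had 303, 263 and 289 CPM in sorafenib libraries, against 359, 367 and 351 CPM in control libraries. It was the most abundant polycomb member per length, at 66.9 ± 4.44 FPKM in sorafenib and 79.98 ± 2.73 FPKM in control cells. Suz12 fell 1.26-fold (log2 fold change -0.33 ± 0.07 SE, adjusted p = 0.0112), a call that ended on unfiltered FPKM and without sorafenib replicate 2 or 3 (adjusted p from 0.000387 to 0.0729).

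Bmi1, a RING-type partner in polycomb repressive complex 1, showed the largest fall of the set with all 6 libraries, and Tet2 the largest without control replicate 2. Bmi1 had 31.9, 31.6 and 38.6 CPM in sorafenib libraries, against 47.9, 45.8 and 51.5 CPM in control libraries. The 3 control libraries all lay above the highest sorafenib library. Bmi1 fell 1.42-fold (log2 fold change -0.51 ± 0.10 SE, adjusted p = 0.00465) and was called under every alternative except unfiltered FPKM (adjusted p from 7.00e-05 to 0.0815). Ezh1, the PRC2 methyltransferase of resting cells, had 88.1, 90.6 and 87.9 CPM in sorafenib libraries, against 100.2, 95.5 and 102 CPM in control libraries. The groups did not overlap, and the test was not passed (log2 fold change -0.16 ± 0.06 SE, adjusted p = 0.122). Without control replicate 2 Ezh1 was called lower, 1.14-fold (adjusted p = 0.0162, range 0.0162 to 0.589 over the alternatives).

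Eed, the PRC2 subunit that binds the finished mark, had its higher values with sorafenib. It had 122, 126 and 126 CPM in sorafenib libraries, against 101, 121 and 99.8 CPM in control libraries. Control replicate 2 lay just below the sorafenib libraries, and the other controls lay well below them. In the fit of all 6 libraries Eed missed the threshold (log2 fold change 0.22 ± 0.08 SE, adjusted p = 0.104). It was called higher, 1.24-fold, without control replicate 2 (adjusted p = 0.000214, range 0.000214 to 0.287), and also with total counts only, on every FPKM fit and with the length trend removed. The balance of PRC2 transcripts within a library does not depend on the scaling between libraries. These ratios were chosen after the values were seen and carry no test. The ratio of Ezh2 to Eed per length was 0.303, 0.308 and 0.309 in sorafenib libraries, against 0.437, 0.396 and 0.467 in control libraries. The ratio of Suz12 to Eed was 1.17, 0.984 and 1.077 in sorafenib libraries, against 1.67, 1.43 and 1.66 in control libraries. Both ratios were lower in each sorafenib library than in any control library, and control replicate 2 had the lowest control value of each. The ratio of Ezh2 to Suz12 was 0.286 ± 0.0276 in sorafenib and 0.274 ± 0.0108 in control cells and overlapped.

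**Figure D3:**
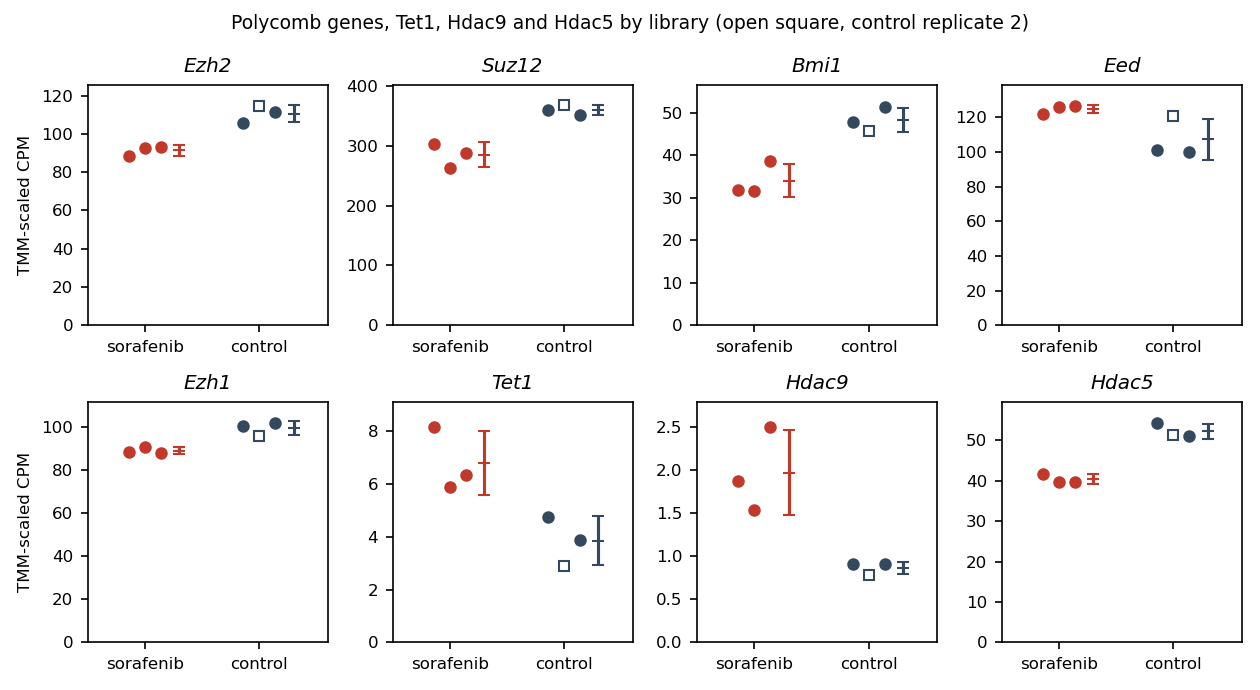
TMM-scaled CPM (y axes, from 0) of the 5 polycomb members and of Tet1, Hdac9 and Hdac5 in each library, sorafenib left and control right, with the mean and SD of 3 libraries beside the points. Control replicate 2 is the open square, and the groups do not overlap in any of the 8 panels, with Eed, Tet1 and Hdac9 higher in the sorafenib libraries.

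Among the DNA methylation enzymes, Tet1 rose and the methyltransferases did not pass the test. Tet1 had 8.19, 5.89 and 6.36 CPM in sorafenib libraries, against 4.77, 2.90 and 3.89 CPM in control libraries. The lowest sorafenib library was above the highest control library. Tet1 rose 1.76-fold (log2 fold change 0.82 ± 0.20 SE, adjusted p = 0.0177), and 1.57-fold without control replicate 2 (adjusted p = 0.00691, range 0.00111 to 0.15). Leaving out control replicate 3 or sorafenib replicate 1 or 3 ended the call, as did unfiltered FPKM. Per length Tet1 was scarce, at 0.38 ± 0.0654 FPKM in sorafenib and 0.206 ± 0.0583 FPKM in control cells.

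Tet2, a TET enzyme often mutated in blood cancers, had 52.9, 52.8 and 49.4 CPM in sorafenib libraries, against 86.2, 50.7 and 73.4 CPM in control libraries. Control replicate 2 lay among the sorafenib libraries and the other controls lay far above. Tet2 was not called with all libraries (log2 fold change -0.44 ± 0.16 SE, adjusted p = 0.0809). Without control replicate 2 it was 1.54-fold lower (adjusted p = 1.49e-06, range 1.49e-06 to 0.477), and DESeq2 and the fit with the length trend removed also called it lower. Tet3 had 90.9, 99.5 and 97.4 CPM in sorafenib libraries, against 114, 56.4 and 93.5 CPM in control libraries (adjusted p = 0.732). Its control libraries spanned the sorafenib values on either side.

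Dnmt1, which copies methylation after replication, had 121, 117 and 120.2 CPM in sorafenib libraries, against 112, 88.1 and 108 CPM in control libraries. The groups did not overlap, but the test was not passed (log2 fold change 0.22 ± 0.09 SE, adjusted p = 0.124). Dnmt1 was called higher with the length trend removed and under no other alternative, 0.0927 being its adjusted p without control replicate 2 (range 0.0329 to 0.303). Dnmt3a, a de novo methyltransferase, had 68.2, 70.5 and 69.4 CPM in sorafenib libraries, against 76.9, 48.7 and 63.8 CPM in control libraries (adjusted p = 0.549). Dnmt3b, the other de novo enzyme, had 7.72, 7.22 and 7.53 CPM in sorafenib libraries, against 9.11, 6.53 and 7.22 CPM in control libraries (adjusted p = 0.932). For both genes the sorafenib values lay within the control range. Per length the order was Dnmt1 (19.9 ± 0.279 FPKM in sorafenib, 16.3 ± 2.72 FPKM in control cells), Dnmt3a (2.9 ± 0.0651 FPKM in sorafenib, 2.52 ± 0.667 FPKM in control cells) and Dnmt3b (1.33 ± 0.0371 FPKM in sorafenib, 1.29 ± 0.278 FPKM in control cells). FPKM divides by a length of 24591 bases for Dnmt3a, so its level per length rests on that length.

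Deacetylases gave 1 rise and 1 fall among 9 genes. Hdac9, a class IIa deacetylase, had 1.88, 1.54 and 2.50 CPM in sorafenib libraries, against 0.911, 0.784 and 0.906 CPM in control libraries. These are 59 to 98 counts in sorafenib and 27 to 34 counts in control libraries, the lowest level of the set. Hdac9 rose 2.27-fold (log2 fold change 1.18 ± 0.28 SE, adjusted p = 0.0151), the largest change among the members, and the call ended on unfiltered FPKM and without sorafenib replicate 1 or 3 (adjusted p from 0.00436 to 0.103). Hdac5, another class IIa enzyme, had 41.8, 39.7 and 39.6 CPM in sorafenib libraries, against 54.4, 51.3 and 51.1 CPM in control libraries. Its sorafenib libraries were all below its control libraries. Hdac5 fell 1.29-fold (log2 fold change -0.37 ± 0.07 SE, adjusted p = 0.00493) and was called under every alternative but unfiltered FPKM (adjusted p from 0.000191 to 0.0865).

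The abundant class IIa gene Hdac7 had 378, 369.5 and 365 CPM in sorafenib libraries, against 385, 285 and 372 CPM in control libraries (adjusted p = 0.594). Apart from control replicate 2 its libraries lay close together. Hdac4, the fourth class IIa gene, averaged 116 ± 4.04 CPM in sorafenib and 117 ± 21.6 CPM in control cells (adjusted p = 0.974). Hdac1, a catalytic subunit of the NuRD and Sin3 complexes, had 156, 159.8 and 149 CPM in sorafenib libraries, against 169, 179.8 and 173 CPM in control libraries. Its sorafenib libraries were the lower ones without overlap, and the test was not passed (log2 fold change -0.17 ± 0.06 SE, adjusted p = 0.105). Hdac3, the NCoR partner, averaged 62.9 ± 3.51 CPM in sorafenib and 72.7 ± 3.56 CPM in control cells (adjusted p = 0.0798), and 1.13-fold lower without control replicate 2 (adjusted p = 0.0452, range 0.026 to 0.324). Sirt2, an NAD-dependent deacetylase, averaged 89.4 ± 4.09 CPM in sorafenib and 104 ± 7.68 CPM in control cells (adjusted p = 0.0731), and 1.18-fold lower without control replicate 2 (adjusted p = 0.00768, range 0.00768 to 0.398). Sirt1 of the same family had 20.7, 21.7 and 23.5 CPM in sorafenib libraries, against 24.2, 26.1 and 22.7 CPM in control libraries (adjusted p = 0.306). Hdac2 averaged 109 ± 4.77 CPM in sorafenib and 120.2 ± 13.7 CPM in control cells (adjusted p = 0.331). Sirt1 and Hdac2 overlapped between groups.

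The remaining 5 classes were those in which edgeR called no member. That 0 of their 20 members passed, against 17.9% of all tested genes, follows from this choice. DESeq2 and limma-voom called 0 each. An unadjusted edgeR p under 0.05 was reached by 2 of the 20 (Suv39h2 and Kat2a), against 30.9% of all tested genes. Without control replicate 2 there were 5 calls among the 20, against 31.8% of all tested genes. The group was formed by its lack of calls, so these counts describe it and test nothing. Among the histone methyltransferases, Suv39h2, which places the heterochromatin mark, averaged 5.79 ± 0.245 CPM in sorafenib and 4.42 ± 0.319 CPM in control cells (log2 fold change 0.39 ± 0.14 SE, adjusted p = 0.077). Its groups did not overlap, and it was called higher, 1.36-fold, without control replicate 2 (adjusted p = 0.0404, range 0.0385 to 0.203) and also with total counts only. Its relative Suv39h1 had 28.4, 26.1 and 30.6 CPM in sorafenib libraries, against 24.9, 26.5 and 26.9 CPM in control libraries, which overlapped (adjusted p = 0.387). Dot1l, which methylates histone H3 in transcribed genes, averaged 74.7 ± 6.04 CPM in sorafenib and 82.7 ± 16.2 CPM in control cells (adjusted p = 0.498), and was 1.23-fold lower without control replicate 2 (adjusted p = 0.00159, range 0.00159 to 0.895). With the length trend removed Dot1l was not called (adjusted p = 0.23). Kmt2a, the MLL methyltransferase, averaged 127 ± 7.03 CPM in sorafenib and 103 ± 40.3 CPM in control cells (adjusted p = 0.493). Its control spread came from 57.4 CPM in control replicate 2, against 134 and 117 CPM in the other controls. Setdb1, Ehmt1 and Ehmt2, which act on the same residue as the SUV39H enzymes, had log2 fold changes of 0.12, 0.04 and 0.08 (adjusted p = 0.352, 0.807 and 0.447).

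Of the demethylases, Kdm6b, which removes the PRC2 mark, had 160.05, 143 and 156 CPM in sorafenib libraries, against 162, 113 and 153 CPM in control libraries (adjusted p = 0.642). The highest library of either kind was a control. Kdm5b, which acts on the promoter mark of active genes, averaged 186 ± 13.4 CPM in sorafenib and 209.8 ± 21.4 CPM in control cells (adjusted p = 0.219), and was 1.19-fold lower without control replicate 2 (adjusted p = 0.00407, range 0.00407 to 0.705). Kdm1a and Kdm2b had groups that did not overlap, with sorafenib higher, at log2 fold changes of 0.11 and 0.16 (adjusted p = 0.26 and 0.178).

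Of the acetyltransferases, Ep300 had 129, 121 and 128 CPM in sorafenib libraries, against 158, 88.7 and 155 CPM in control libraries. Control replicate 2 was the lowest library and the other controls the highest ones. Ep300 was not called with all libraries (log2 fold change -0.08 ± 0.18 SE, adjusted p = 0.8), and was 1.24-fold lower without control replicate 2 (adjusted p = 0.000214, range 0.000214 to 0.963). With the length trend removed Ep300 was not called (adjusted p = 0.707), and 5 of its 18 alternatives gave the opposite sign. Its paralogue Crebbp had 72.7, 66.1 and 71.7 CPM in sorafenib libraries, against 68.0, 47.1 and 69.9 CPM in control libraries (adjusted p = 0.375). Kat2b, a catalytic subunit of SAGA-type complexes, had 26.7, 27.8 and 29.99 CPM in sorafenib libraries, against 26.7, 24.6 and 27.1 CPM in control libraries (adjusted p = 0.427). Both genes overlapped between groups. Kat2a, the related enzyme, averaged 44.6 ± 3.002 CPM in sorafenib and 39.2 ± 1.06 CPM in control cells without overlap (adjusted p = 0.131).

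None of the remodelling genes Smarca4, Arid1a and Chd4 passed the test in any of these fits. Smarca4, the SWI/SNF ATPase BRG1, had 131, 128 and 130.2 CPM in sorafenib libraries, against 131, 97.6 and 134 CPM in control libraries (adjusted p = 0.575). Arid1a averaged 169.7 ± 3.23 CPM in sorafenib and 161 ± 43.6 CPM in control cells (adjusted p = 0.805). Chd4, the NuRD ATPase, was the most abundant member by CPM, at 459 ± 1.44 in sorafenib and 473 ± 48.1 in control cells (adjusted p = 0.785). The spread was far wider in control than in sorafenib cells for all 3 genes, and control replicate 2 was the lowest library for each. It had 111 CPM for Arid1a, against 188 and 184 CPM in the other controls. For Chd4 it had 421 CPM, against 516 and 482 CPM. Prmt5, which places symmetric dimethylarginine, had 96.1, 91.5 and 92.2 CPM in sorafenib libraries, against 88.3, 98.3 and 100.1 CPM in control libraries (adjusted p = 0.795). Prmt1, the main asymmetric enzyme and the most abundant member per length at 98.6 ± 2.001 FPKM in sorafenib and 93.01 ± 11.8 FPKM in control cells, averaged 164 ± 2.75 CPM in sorafenib and 164 ± 28.4 CPM in control cells (adjusted p = 0.997). It was called higher, 1.11-fold, only without control replicate 2 among the alternatives (adjusted p = 0.0472, range 0.0472 to 0.992).

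Ratios of related enzymes within a library were compared for 12 pairs with exact two-sided permutation tests on log2 ratios of FPKM, which cannot go below p = 0.1 with 3 against 3 libraries. The groups did not overlap for 5 pairs, each at that smallest p (0.24 after adjustment over the 12 pairs). The ratio of Tet3 to Tet2 was 1.38, 1.51 and 1.58 in sorafenib libraries, against 1.06, 0.893 and 1.02 in control libraries. It was 1.5-fold higher with sorafenib, and control replicate 2 was the control farthest from the sorafenib libraries. The ratio of Ep300 to Crebbp was 2.17, 2.24 and 2.19 in sorafenib libraries, against 2.84, 2.30 and 2.72 in control libraries. The 3 sorafenib libraries lay close together just below control replicate 2. The ratio of Hdac9 to Hdac7 was 2.07-fold higher with sorafenib, and those of Hdac5 to Hdac4 and of Suv39h1 to Suv39h2 were 1.3-fold and 1.21-fold lower. Hdac5 to Hdac4 was 2.004 in control replicate 2, against 1.47 and 1.496 in the other controls, and the log2 difference moved to -0.24 without it, against -0.38 with it (exact permutation p = 0.2 and 0.1). Without control replicate 2 the log2 differences of the other 4 pairs were 0.51 for Tet3 to Tet2, 1.12 for Hdac9 to Hdac7, -0.33 for Ep300 to Crebbp and -0.31 for Suv39h1 to Suv39h2. The ratio of Ezh2 to Ezh1 was 1.3 ± 0.039 in sorafenib and 1.41 ± 0.0955 in control cells and overlapped (exact permutation p = 0.2, 0.343 after adjustment). Dnmt1 to Dnmt3a, Dnmt3b to Dnmt3a, Hdac1 to Hdac2, Kat2a to Kat2b, Ehmt1 to Ehmt2 and Sirt1 to Sirt2 overlapped as well (exact permutation p from 0.2 to 0.9).

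**Figure D4:**
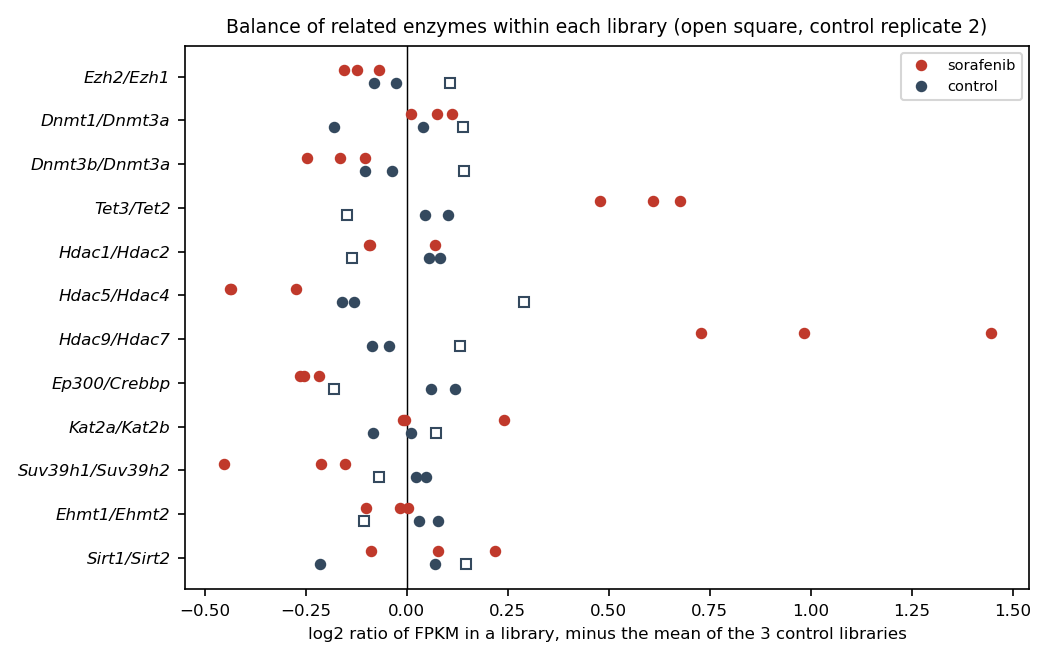
Log2 ratio of FPKM for 12 pairs of related enzymes in each library, minus the mean of the 3 control libraries (x axis), with sorafenib libraries in red above control libraries in dark blue. Tet3/Tet2 and Hdac9/Hdac7 lie to the right of all controls, while Hdac5/Hdac4, Ep300/Crebbp and Suv39h1/Suv39h2 lie to the left.

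Other genes of the same machinery, in 8 lists, were examined beside the members. Of 180 tested, 12 rose and 13 fell, to be read against 8.51% and 9.43% of all genes, and their median log2 fold change was -0.03. Other polycomb proteins gave 2 rises and 5 falls among 29 genes. Jarid2, which recruits PRC2, fell 1.47-fold (126 ± 4.61 CPM in sorafenib and 186 ± 25.4 CPM in control cells, adjusted p = 0.00286), and Asxl2 and Pcgf5 fell 1.45-fold and 1.28-fold. Other lysine methyltransferases gave 1 rise and 4 falls among 27 genes, with Nsd3 at 499 ± 18.5 CPM in sorafenib and 785 ± 102 CPM in control cells (1.57-fold lower, adjusted p = 0.00159), and Men1, Smyd3 and Kmt5b 1.32-fold, 1.25-fold and 1.23-fold lower. Of 19 other demethylases 1 was called, Kdm3a, which averaged 244 ± 12.96 CPM in sorafenib and 305 ± 15.8 CPM in control cells and fell 1.25-fold (adjusted p = 0.0125).

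The DNA methylation readers and partners held 2 calls among 16 genes, both rises and both of GADD45 proteins, which are known as stress-induced genes that have been linked to demethylation. Gadd45b averaged 87.2 ± 12.04 CPM in sorafenib and 40.9 ± 10.4 CPM in control cells and rose 2.13-fold (adjusted p = 0.00148), and Gadd45g rose 1.4-fold (adjusted p = 0.0263, but 0.119 without control replicate 2). Gadd45a of the same family did not rise, at 36.6 ± 2.93 CPM in sorafenib and 39.6 ± 4.88 CPM in control cells (adjusted p = 0.495). Of 25 other deacetylase genes, Mideas and Hdac11 rose 1.43-fold and 1.75-fold and Sirt7 fell 1.18-fold. Of 25 other acetyltransferases and bromodomain readers, Ncoa2 and Tada3 rose 1.36-fold and 1.23-fold and Kat6b fell 1.39-fold. Of 30 other remodelling genes, Smarca2 and Hells rose 1.39-fold and 1.2-fold and Chd7 fell 1.42-fold, and of 9 other arginine methyltransferase genes Prmt9 rose 1.34-fold. Without control replicate 2, 18 of these 180 genes were called higher and 51 lower, against 15% and 16.8% of all genes.

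Genes of replication and mitosis were followed as a list too, since Dnmt1, Ezh2 and SUV39H genes are known to be expressed with the cell cycle. Of 23 tested, 10 rose, against 8.51% of all tested genes, among them Ube2c (1.35-fold, adjusted p = 0.00434) and Ccnb1 (1.43-fold, adjusted p = 0.00759), with a median log2 fold change of 0.24. The 10 calls became 1 without sorafenib replicate 3, 5 without sorafenib replicate 2 or control replicate 3, and 6 without sorafenib replicate 1. No share of all genes called in those fits stands beside these counts. There were 12, all higher, without control replicate 2. The summed level of the list was 1228 to 1241 CPM in sorafenib and 1032 to 1110.2 CPM in control libraries. Of the members named for this list, Dnmt1, Suv39h1 and Suv39h2 had log2 fold changes of 0.22, 0.12 and 0.39, none of them called. Ezh2 was called lower, at -0.27. The part of the cell cycle in the members' values was not tested.

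**Figure D5:**
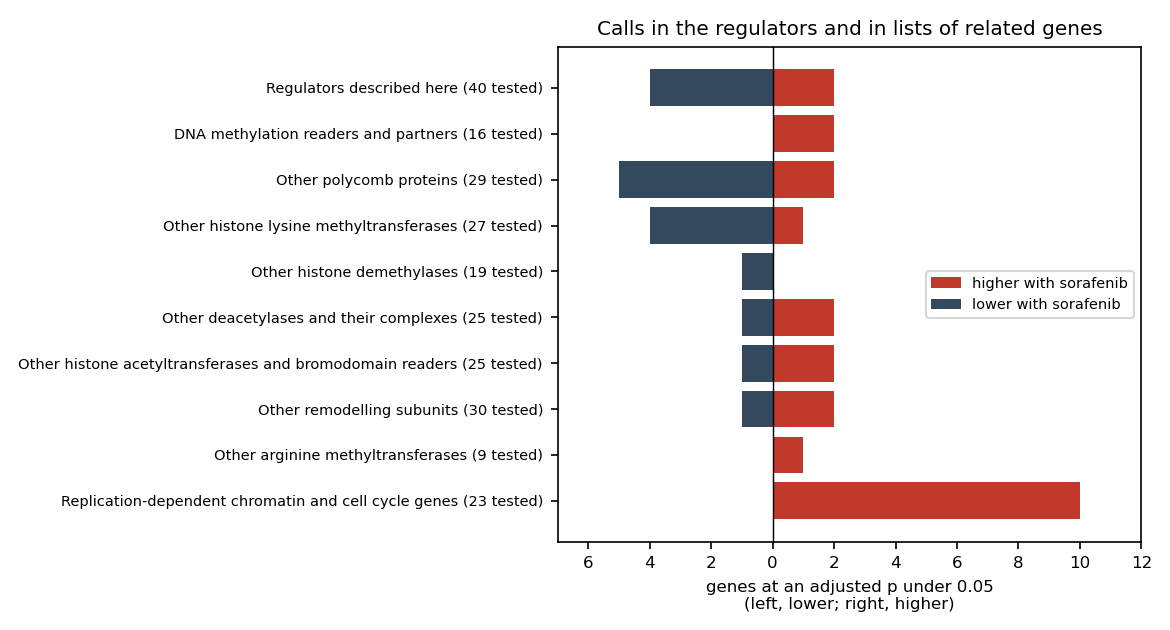
Number of genes at an adjusted p under 0.05 in the 40 regulators and in 9 lists of related genes (x axis), with rises to the right in red and falls to the left in dark blue. The regulators show 2 rises and 4 falls, other polycomb proteins 2 and 5, and the cell cycle list 10 rises.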

How the data were processed

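Per the labels' protocols, TRIzol was used to extract total RNA from mouse Th9 cells, and a VAHTS Universal V5 kit to build the libraries. The authors deposited whole-number counts per gene symbol and FPKM values for the same 6 libraries. Each deposited FPKM was the count over the column total and a gene length, which is how lengths were recovered. Per the submitters' processing notes, the tools were fastp, HISAT2, HTSeq, R 3.2.0 and DESeq2, with build GRCm39. No source used here gives their roles, whether strand was used in counting, or what was done with reads shared by several genes, so genes that overlap others are uncertain.

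Sample titles gave the groups. Counts were filtered with filterByExpr and given TMM factors, and edgeR 4.0.16 in R 4.3.3 fitted group alone (robust quasi-likelihood F test, 4 residual degrees of freedom, common biological coefficient of variation 10.9%). The Benjamini-Hochberg adjustment ran over all 13255 genes fitted, and each SE came from the fold change and its F statistic. The members and lists were chosen with earlier results of these data known. Every called member is given by library, as is a listed group of the others whatever their result, and each list is illustrated by at most 4 called genes, taken by adjusted p. One gene that this choice names is not reported here. The model was checked on simulated counts. Promoter windows were matched by symbol to RefSeq on GRCm38.p6.

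Alternatives were DESeq2 1.42.0, its size factors in edgeR, upper-quartile factors, total counts, no filter, a minimum of 1 CPM in 3 libraries, a replicate block, leaving out each library, and limma 3.58.1, with voom, on log2(FPKM + 1) with and without a mean FPKM of at least 0.5, or on log2(FPKM + 0.1) with that minimum. Log2(FPKM + pseudocount) understates changes of low genes. Removing the length trend was added after seeing the data.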

Additional observations from a re-analysis of the deposited data

How the results depend on the processing

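Without a filter on log2(FPKM + 1), limma called 1 member, 1 higher and 0 lower (12 had an unadjusted p under 0.05, 4 of them lower), against 6 by edgeR on counts. Filtered FPKM, at either pseudocount, called 1 member higher (Eed), and Suz12, Bmi1 and Hdac5 lower. Total counts only called 4 higher and again Suz12, Bmi1 and Hdac5 lower, with a median log2 fold change of 0.13. Hdac9 and Tet1 were under the FPKM filter and could not be called there. With the length trend removed 14 members were called, 4 higher and 10 lower. Leaving out 1 library gave 2 to 16 members called, 0 to 5 higher and 2 to 11 lower, and a median from -0.031 to 0.10. Shares of all genes called were given only for all libraries, without control replicate 2 and with the length trend removed. The other counts of calls, for members and lists, have no such share beside them. For the lists, unfiltered FPKM gave 1 call in readers and partners, 3 in other polycomb proteins, 0 in other lysine methyltransferases, 0 in demethylases, 1 in deacetylases, 0 in acetyltransferases, 1 in remodelling and 5 in the cell cycle list. In the lists with 0, an unadjusted p under 0.05 was reached by 4 lysine methyltransferases, 4 demethylases and 6 acetyltransferases. Filtered FPKM gave 3 lysine methyltransferases and 1 remodelling gene at either pseudocount, and 2 demethylases at a pseudocount of 1, as did upper-quartile factors. With the length trend removed the calls were 4 readers, 3 demethylases, 5 acetyltransferases and 5 remodelling genes. Leaving out 1 library gave 1 to 6 readers, 3 to 13 polycomb proteins, 2 to 13 lysine methyltransferases, 0 to 8 demethylases, 0 to 6 deacetylases, 0 to 10 acetyltransferases, 1 to 11 remodelling genes, 0 to 2 arginine methyltransferases and 1 to 12 cell cycle genes. Every member whose sign changed was one not called in the fit of all libraries. Against negative values there, upper-quartile factors gave log2 fold changes of 0.011 for Dnmt3b, 0.029 for Hdac4 and 0.0020 for Prmt5. Total counts gave 0.045 for Dnmt3b, 0.059 for Hdac4, 0.027 for Chd4 and 0.042 for Prmt5. FPKM with a pseudocount of 1, filtered or not, gave 0.032 for Dnmt3b, 0.068 for Hdac4, 0.033 for Ep300, 0.037 for Chd4 and 0.043 for Prmt5. With a pseudocount of 0.1 it gave 0.060 for Dnmt3b, 0.084 for Hdac4, 0.039 for Ep300, 0.038 for Chd4 and 0.044 for Prmt5. Hdac4 was at 0.0079 with limma-voom. Leaving out 1 library gave log2 fold changes of Dnmt3a -0.018 to 0.30, Dnmt3b -0.12 to 0.12, Tet3 -0.11 to 0.35, Ehmt1 -0.022 to 0.10, Kdm6b -0.045 to 0.20, Hdac4 -0.15 to 0.10, Hdac7 -0.025 to 0.18, Ep300 -0.31 to 0.047, Smarca4 -0.027 to 0.19, Arid1a -0.13 to 0.20, Chd4 -0.12 to 0.021, Prmt1 -0.086 to 0.15 and Prmt5 -0.091 to 0.0084. The same turned the log2 ratios Dnmt1/Dnmt3a (-0.024 to 0.14), Hdac1/Hdac2 (-0.11 to 0.0029), Kat2a/Kat2b (-0.0071 to 0.12) and Sirt1/Sirt2 (-0.039 to 0.15). The cause of these changes was not tested. Deviations from the group means of libraries with the same replicate number had correlations of -0.059, 0.153 and 0.098, so the numbers were not taken as pairs. A replicate block gave 6 members called, 2 higher and 4 lower, with a median of 0.06, and 5 other polycomb proteins. Hdac4 was at 0.0081 with the block. Hdac9 had the lowest depth of the members, 27 counts in 1 library, and 3 libraries a group limit what can be called.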
